A study of Mus musculus with 9 samples.

Results

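The cone phototransduction cascade was followed as 10 genes of the mouse retina: the cone opsins Opn1sw and Opn1mw, cone arrestin Arr3, the cone transducin subunits Gnat2, Gnb3 and Gngt2, the cone phosphodiesterase subunits Pde6c and Pde6h, and the cone cyclic-nucleotide-gated channel subunits Cnga3 and Cngb3. The members were taken by gene symbol, and all 10 were found, once each, among the 22337 genes of the expression table. RNA-seq was measured at postnatal day 28 (P28) in the retinas of WT mice (C57 BL/6J, non-treated), of rd10 mice given normal saline (NS) and of rd10 mice given extracellular vesicles from human umbilical cord mesenchymal stem cells (MSC-EVs), with 3 libraries per group. Both rd10 groups carried the Pde6b mutation of this strain and received 1 μl in both eyes at P14 and again at P21. Littermates of rd10 mice were given either MSC-EVs or NS, and which libraries share a litter is not given. The labels describe the injection as intravenous and the study design as into the vitreous. The WT mice came from another supplier than the rd10 mice and were not injected, and genotype, source and injection therefore cannot be told apart in a comparison with WT.

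Cones are the photoreceptors of daylight and colour vision. Light isomerises the chromophore of an opsin, the opsin activates transducin, transducin releases the phosphodiesterase from its inhibitory subunit, the fall in cGMP closes the channel of the outer segment, and arrestin ends the signal of the opsin. Rods run the same chain with their own gene for nearly every step. The rd10 mutation lies in Pde6b, the β subunit of the rod phosphodiesterase. Rods degenerate first in this strain and cones later, although cones do not use Pde6b.

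The promoters of 4 members are shown, the opsins, Arr3 and Gnat2, chosen by their levels. These had the lowest log2 differences from WT in both rd10 groups, although Arr3 did not pass the test in NS, as described later. A tie between promoter and level was not tested. RefSeq (GRCm38.p6) gave the bases from 250 before to 50 after the start of transcription for 6 of the 10 members. Both strands were searched for TAATCC, the core motif of the photoreceptor factor CRX, and for TAATTA, a motif bound by paired-type homeodomain factors, which reads the same on both strands and does not overlap TAATCC here. The Opn1sw promoter lies on the minus strand at chr6:29380464-29380763 and held neither motif. The Opn1mw promoter lies on the plus strand at chrX:74127216-74127515 and held neither. The Arr3 promoter, on the plus strand at chrX:100605247-100605546, held TAATTA 70 bases before the start. The Gnat2 promoter, on the plus strand at chr3:108092816-108093115, held TAATCC on the other strand, read as GGATTA, 19 bases before the start. The promoters of Pde6h and Cnga3 held neither motif and are not shown. Capitals mark the matches in the 4 promoters shown.
Opn1sw: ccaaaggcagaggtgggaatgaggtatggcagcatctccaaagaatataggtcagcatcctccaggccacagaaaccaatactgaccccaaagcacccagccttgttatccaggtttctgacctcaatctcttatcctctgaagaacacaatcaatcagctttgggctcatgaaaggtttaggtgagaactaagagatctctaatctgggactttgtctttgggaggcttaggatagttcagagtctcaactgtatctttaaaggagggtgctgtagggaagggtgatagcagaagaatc
Opn1mw: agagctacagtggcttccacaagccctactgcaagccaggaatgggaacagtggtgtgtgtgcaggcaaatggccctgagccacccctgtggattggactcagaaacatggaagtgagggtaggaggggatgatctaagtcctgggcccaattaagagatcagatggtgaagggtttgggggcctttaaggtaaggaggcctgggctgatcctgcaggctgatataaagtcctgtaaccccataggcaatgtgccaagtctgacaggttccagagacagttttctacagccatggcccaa
Arr3: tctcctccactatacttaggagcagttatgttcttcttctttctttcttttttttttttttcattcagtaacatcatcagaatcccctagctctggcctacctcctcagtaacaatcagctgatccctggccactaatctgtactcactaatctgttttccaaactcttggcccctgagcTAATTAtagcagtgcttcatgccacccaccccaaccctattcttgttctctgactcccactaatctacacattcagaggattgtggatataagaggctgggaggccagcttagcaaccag
Gnat2: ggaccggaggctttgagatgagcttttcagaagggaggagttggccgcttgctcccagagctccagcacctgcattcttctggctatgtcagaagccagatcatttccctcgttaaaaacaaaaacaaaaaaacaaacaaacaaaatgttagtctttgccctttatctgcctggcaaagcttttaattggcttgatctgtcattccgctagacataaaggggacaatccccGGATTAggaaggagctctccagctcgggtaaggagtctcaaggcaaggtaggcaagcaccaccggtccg

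TAATCC was found in 1 of the 7 promoters of the cone cascade (Cnga3 has 2 listed starts), in 4 of 6 promoters of the rod cascade and in 7.06% of the 32817 promoters of this length. TAATTA was found in 1 of 7, in 0 of 6 and in 5.3% of promoters. The rod list was searched without any promoters on 1 chromosome, a filter not used for the cone list or for all promoters. These are matches of letters in a window and not binding sites.

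The estimated counts of a library summed to between 19491717 and 62532343, and the 10 cone genes held between 335 counts (Cnga3, NS replicate 2) and 33000 counts (Opn1sw, MSC-EVs replicate 3). The Y-linked genes Kdm5d, Uty, Ddx3y and Eif2s3y summed to 4379 and 4421 counts in MSC-EVs replicates 1 and 2 and to between 7 and 23 counts in the other 7 libraries. The labels do not give the sex of the mice. Arr3 and Opn1mw lie on the X chromosome. The comparison of MSC-EVs with NS was therefore also fitted without these 2 libraries.

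Expression is given as CPM, the count scaled to library size, with the factors of the TMM method, which corrects for the composition of a library. A fold change was tested with edgeR's quasi-likelihood test on the 6 libraries of a comparison, and p was adjusted by Benjamini-Hochberg over all genes tested. A single gene was taken as changed at an adjusted p under 0.05 and as differentially expressed when its log2 fold change was also at least 1 in size. Whole retinas were measured, and fewer cones and less RNA per cone cannot be told apart. CPM is relative to the rest of the library, and the rod genes described later lose much of their share in rd10. A rise in CPM therefore cannot be told apart from a loss of RNA from other cells.

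In NS retinas some cone genes were lower and others higher than in WT, in shares near those of all genes. The cone opsins and the α subunit of cone transducin fell, the β subunit Gnb3, the phosphodiesterase Pde6c and the channel subunit Cngb3 rose, and Arr3, Gngt2, Pde6h and Cnga3 did not pass the test. That is 3 of 10 members lower, against 30.1% of the 14644 genes tested, and 3 of 10 higher, against 31.2%. No member was differentially expressed with the limit on the fold, against 12.7% of all genes. The WT and NS libraries did not overlap for 7 of the 10 members, against 66.9% of all genes. The median log2 fold change of the list was 0.07, and that of all genes was 0.005. These counts were near the background.

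**Figure D1:**
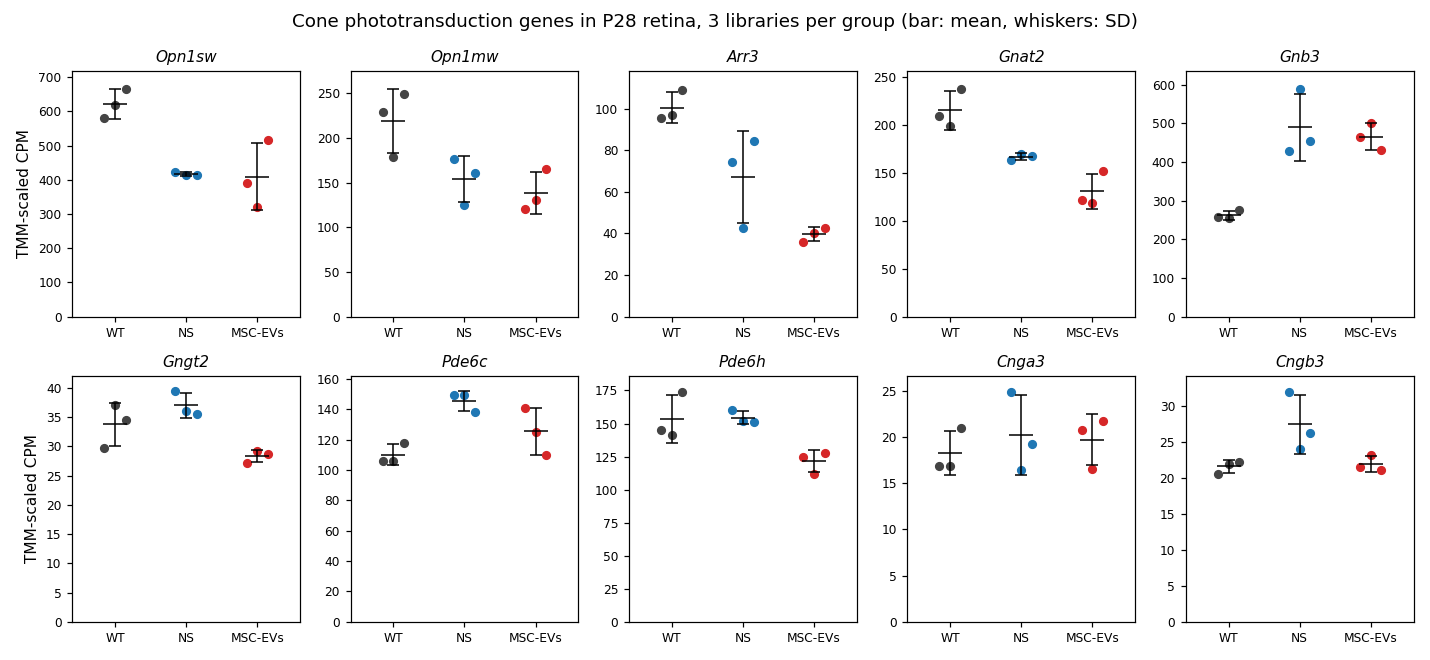
TMM-scaled CPM (vertical axes, each from 0) of the 10 cone genes in the 3 libraries of WT, NS and MSC-EVs, with the mean as a bar and the SD as whiskers. Opn1sw lies between 580 and 667 CPM in WT and between 321 and 516 in the rd10 libraries, while Gnb3 lies between 254 and 276 in WT and between 428 and 589 in the rd10 libraries.

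Opn1sw encodes the short-wavelength opsin, which in the mouse absorbs in the ultraviolet. It measured 580, 618 and 667 CPM in WT, 423, 415 and 414 CPM in NS, and 391, 321 and 516 CPM in MSC-EVs. All 3 WT libraries lay above all 6 rd10 libraries, and the NS libraries were the closest together. In NS it fell by 0.58 on the log2 scale (SE 0.06, adjusted p = 6.19e-06), to 0.671 of the WT level. The Opn1sw gene (GRCm38 chromosome 6, 29376671-29388468, minus strand) shares 397 exonic bases with Calu on the other strand. Calu measured a mean of 217 CPM in WT, 220 in NS and 205 in MSC-EVs, and its part in the Opn1sw counts was not tested.

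Opn1mw (X chromosome, 74127464-74150760, plus strand) encodes the middle-wavelength opsin. It measured 229, 179 and 249 CPM in WT, 176, 125 and 161 CPM in NS, and 120, 131 and 165 CPM in MSC-EVs. The WT and NS libraries did not overlap, although WT replicate 2 lay just above NS replicate 1. In NS it fell by 0.51 (SE 0.17, adjusted p = 0.0374), to 0.704 of WT. This call did not hold without WT replicate 1 (-0.47, adjusted p = 0.109), WT replicate 3 (-0.40, 0.102), NS replicate 2 (-0.38, 0.0589) or NS replicate 3 (-0.54, 0.0971). The FPKM ratio of Opn1sw to Opn1mw was 1.71 ± 0.311 in WT, 1.65 ± 0.276 in NS and 1.73 ± 0.237 in MSC-EVs (SD, n = 3). The log2 ratio was 0.05 lower in NS than in WT, a difference of -0.05 with an exact two-sided permutation p of 0.60, and differed by 0.07 between MSC-EVs and NS with p = 0.90 in the same exact test. The ranges of the 3 groups overlapped, and 3 libraries against 3 cannot give a p below 0.10.

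Arr3 (X chromosome, 100605497-100618493, plus strand), cone arrestin, binds activated cone opsin and ends its signal. It measured 95.7, 96.8 and 109 CPM in WT, 74.6, 42.5 and 84.4 CPM in NS, and 35.9, 40.3 and 42.8 CPM in MSC-EVs. The NS libraries were spread widely, with NS replicate 2 at the level of the MSC-EVs libraries. In NS the log2 difference from WT was -0.58 (SE 0.27, adjusted p = 0.122) and did not pass the test, although every NS library lay below every WT library. Without NS replicate 2 it was -0.34 with an adjusted p of 0.00111.

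Transducin carries the signal from the opsin to the phosphodiesterase, and of its 3 cone subunits 1 fell and 1 rose in NS. Gnat2 (chromosome 3, 108092789-108101432, plus strand), the α subunit that binds GTP, measured 209, 199 and 238 CPM in WT, 163, 170 and 168 CPM in NS, and 122, 118 and 152 CPM in MSC-EVs. The 3 groups did not overlap. In NS it fell by 0.37 (SE 0.06, adjusted p = 0.000375), to 0.776 of WT.

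Gnb3 (chromosome 6, 124834240-124840275, minus strand), the β subunit, measured 258, 254 and 276 CPM in WT, 428, 589 and 454 CPM in NS, and 464, 501 and 432 CPM in MSC-EVs. Every rd10 library lay above every WT library. In NS it rose 1.87-fold (log2 0.90, SE 0.11, adjusted p = 6.95e-05), the largest change of a cone gene in this comparison. Gnb3 is also the transducin-type β subunit of ON bipolar cells and is thus not a gene of cones alone. The 8 bipolar cell markers summed to between 1236 and 1265 CPM in WT, between 1198 and 1370 CPM in NS and between 1239 and 1434 CPM in MSC-EVs, and their part in the Gnb3 level was not tested.

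Gngt2 (chromosome 11, 95837216-95845734, plus strand), the γ subunit, measured 29.7, 37.0 and 34.5 CPM in WT and 39.4, 36.1 and 35.5 CPM in NS, and the groups overlapped (log2 0.14, SE 0.09, adjusted p = 0.206). It shares 234 exonic bases with Abi3 on the other strand. Abi3 measured a mean of 4.76 CPM in WT, 8.92 in NS and 9.65 in MSC-EVs, and its part in the Gngt2 counts was not tested.

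The cone phosphodiesterase hydrolyses cGMP. Its catalytic subunit Pde6c (chromosome 19, 38132781-38183958, plus strand) measured 106, 106 and 118 CPM in WT, 149, 149 and 138 CPM in NS, and 141, 125 and 110 CPM in MSC-EVs. The NS libraries lay above all WT libraries, and the MSC-EVs libraries reached from the WT range to the NS range. In NS it rose 1.32-fold (log2 0.40, SE 0.06, adjusted p = 0.00014). Its inhibitory γ subunit Pde6h measured 145, 141 and 174 CPM in WT and 160, 152 and 151 CPM in NS, with a log2 difference of 0.01 (SE 0.07, adjusted p = 0.913), and the 3 NS libraries lay inside the WT range. By FPKM, Pde6h behaved otherwise, as described later.

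The cone channel admits sodium and calcium while cGMP is bound. Cngb3 (chromosome 4, 19280850-19510623, plus strand), its modulatory subunit, measured 20.6, 22.0 and 22.3 CPM in WT, 32.0, 24.1 and 26.3 CPM in NS, and 21.5, 23.2 and 21.1 CPM in MSC-EVs. NS lay above WT in every library and rose 1.27-fold (log2 0.35, SE 0.11, adjusted p = 0.0126). Without NS replicate 1, the highest library, the log2 difference was 0.21 and no longer passed the test (adjusted p = 0.0562). Cnga3 (chromosome 1, 37214434-37263384, plus strand), the subunit that forms the pore, measured a mean of 18.3 ± 2.41 CPM in WT, 20.2 ± 4.32 in NS and 19.7 ± 2.75 in MSC-EVs (SD, n = 3). All 3 groups overlapped for Cnga3, and its log2 difference between NS and WT was 0.16 (SE 0.15, adjusted p = 0.391).

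The order of the cone genes, compared per transcript length as FPKM, was led by Opn1sw in WT and by Gnb3 in both rd10 groups. In WT the means ran from Opn1sw at 280 FPKM over Opn1mw at 167, Gnb3 at 132, Gnat2 at 108, Arr3 at 71.3, Gngt2 at 54.8, Pde6c at 37.8 and Pde6h at 23.9 to Cnga3 at 5.12 and Cngb3 at 4.25. Of the neighbours in that order, the libraries of Opn1mw and Gnb3 overlapped. In NS, Gnb3 stood at 278 FPKM, above Opn1sw at 215 and Opn1mw at 132. Below them came Gnat2 at 94.8, Gngt2 at 67.6, Pde6c at 56.2, Arr3 at 54.5 and Pde6h at 34.6 FPKM. The Arr3 libraries overlapped with those of Gngt2, Pde6c and Pde6h, and the Cnga3 libraries with those of Cngb3. In MSC-EVs, Gnb3 at 261 FPKM and Opn1sw at 206 overlapped, as did Gngt2 and Pde6c. The channel subunits were last in every group, at 4.25 to 6.27 FPKM. The place of Pde6h in this order depends on the transcript length assigned to it, which is described later.

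The rod cascade was compared with the cone cascade to show where the latter differs. All 9 rod counterparts examined were differentially expressed and lower in NS than in WT, with a median log2 fold change of -1.71. The fall ran from -2.23 for Pde6b (adjusted p = 3.02e-08) to -1.16 for Sag, rod arrestin (4737 CPM in WT and 2119 in NS, adjusted p = 6.31e-07). Between them lay Gnat1 at -2.13, Gnb1 at -1.79 and Gngt1 at -1.64 for rod transducin, Pde6a at -1.67 and Pde6g at -2.06 for the other rod phosphodiesterase subunits, and Cnga1 at -1.60 and Cngb1 at -1.71 for the rod channel. Pde6b, the gene mutated in rd10, measured a mean of 2503 CPM in WT, 534 in NS and 594 in MSC-EVs. Gnb1 is also used by many other cells.

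The counts of the 10 cone genes together took 0.156%, 0.156% and 0.175% of all counts in WT and 0.173%, 0.18% and 0.174% in NS. The same sum for the 9 rod genes was 3.35%, 3.24% and 3.48% in WT and 1.09%, 1.2% and 0.904% in NS. The cone share thus overlapped between the groups, and the rod share did not.

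**Figure D2:**
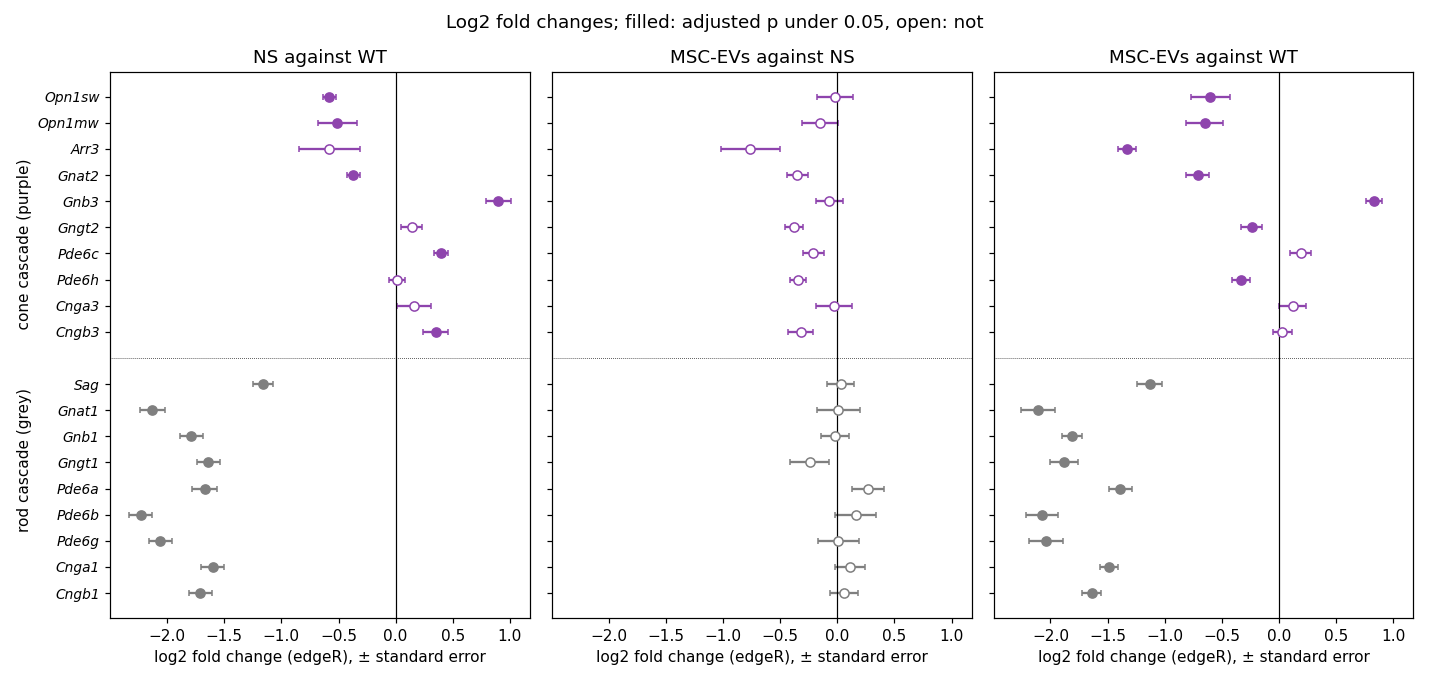
Log2 fold changes from edgeR (horizontal axes) with their standard errors for the 10 cone genes (purple) and 9 rod counterparts (grey) in the 3 comparisons, 3 libraries per group. Filled points passed an adjusted p of 0.05. In NS against WT the cone genes lie between -0.58 and 0.90 and the rod genes between -2.23 and -1.16. In MSC-EVs against NS all points are open.

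Of the cone genes, 8 were next set against their rod counterparts within a library, as a ratio of FPKM values, which does not depend on the scaling of the library. Of 9 ratios, 8 were higher in every NS library than in every WT library. The largest difference was that of Gnb3 to Gnb1, which measured 0.0476, 0.0511 and 0.0537 in WT and 0.292, 0.36 and 0.378 in NS, a 6.72-fold difference (log2 2.75). Gnat2 to Gnat1 measured 0.0174, 0.0169 and 0.0186 in WT and 0.0575, 0.0526 and 0.072 in NS, 3.41-fold higher. The others that did not overlap were 3.44-fold for Gngt2 to Gngt1, 4.22-fold for Pde6c to Pde6a, 6.22-fold for Pde6c to Pde6b, 5.39-fold for Pde6h to Pde6g, 3.2-fold for Cnga3 to Cnga1 and 4.06-fold for Cngb3 to Cngb1. Each of these 8 had the smallest p that an exact two-sided permutation test of 3 libraries against 3 can give, 0.10, and 0.11 after adjustment over the 9 ratios, so that none could pass 0.05. The median log2 difference over the ratios was 2.02. The FPKM ratio of Pde6h to Pde6g also carries the shorter implied length of Pde6h in NS, described later. By CPM this ratio measured 0.0764, 0.076 and 0.0862 in WT and 0.341, 0.291 and 0.383 in NS, which did not overlap either.

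The exception was the arrestin pair. Arr3 to Sag measured 0.0267, 0.0292 and 0.028 in WT, 0.0461, 0.0243 and 0.0603 in NS, and 0.026, 0.0237 and 0.0241 in MSC-EVs. NS replicate 2 lay below all WT libraries and the other 2 NS libraries above them, and the 1.46-fold mean difference had an exact permutation p of 0.40. It is the pair with the smallest rod fall, and the only one whose MSC-EVs libraries all lay below the WT libraries.

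**Figure D3:**
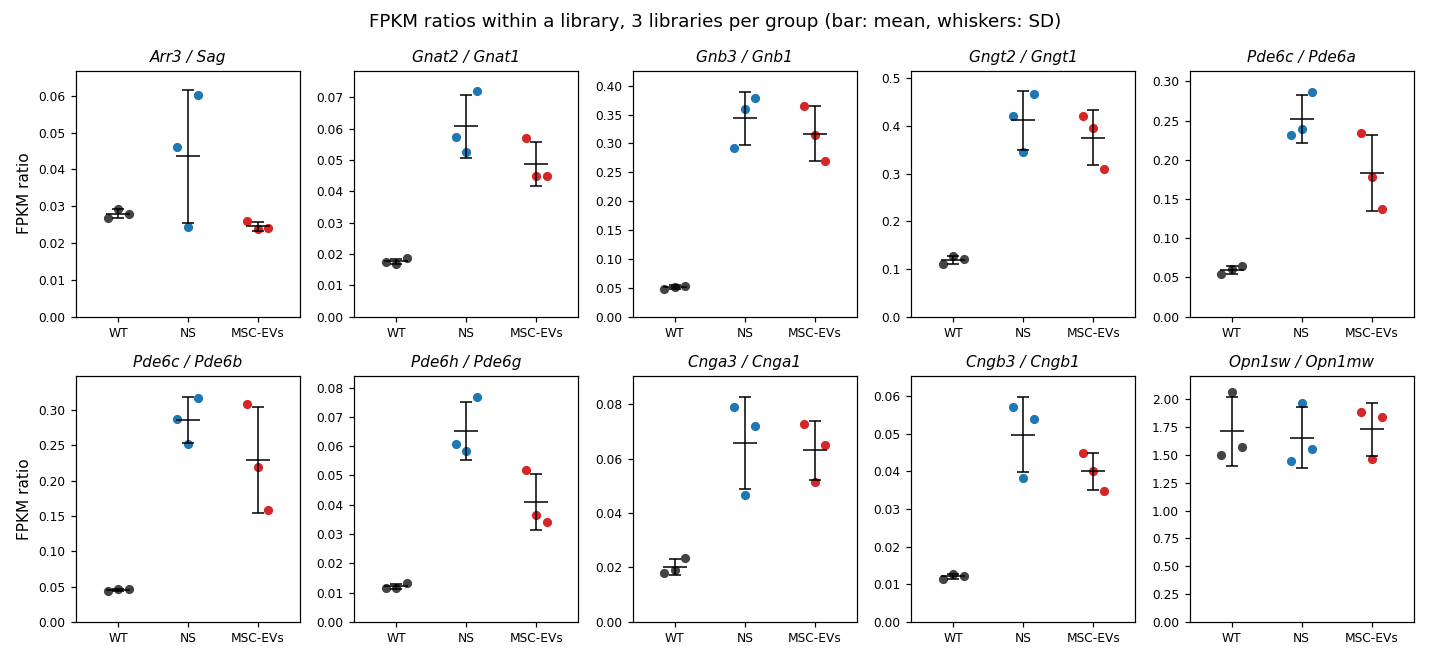
Ratios of FPKM values within each library (vertical axes, each from 0) for 9 pairs of a cone gene and its rod counterpart and for Opn1sw to Opn1mw, with 3 libraries per group, the mean as a bar and the SD as whiskers. Gnb3 to Gnb1 lies between 0.0476 and 0.0537 in WT and between 0.292 and 0.378 in NS, while the groups overlap for Opn1sw to Opn1mw.

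Other genes of the photoreceptors were counted in lists set for the purpose. Of 9 other genes enriched in cones, 8 were tested (Clca3a1 was too low). In NS, 3 of the 8 rose and 2 fell, with a median log2 fold change of 0.15. The largest rise was that of Otop3, an otopetrin proton channel (0.54, adjusted p = 0.0045), and the largest fall that of Pex5l, a regulator of HCN channels that is also found outside cones (-1.32, adjusted p = 1.25e-06). The cone transcription factor Thrb measured 91.1 CPM in WT and 85.2 in NS, with an adjusted p of 0.31. Among genes that rods and cones both use, all 17 fell in NS and 15 were differentially expressed, with a median of -1.54. They ran from Prph2, a tetraspanin of the outer segment disc (-2.05, adjusted p = 1.97e-07), to Impg2, a proteoglycan of the matrix between photoreceptors (-0.39, adjusted p = 0.0102).

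Markers of other cells were read against the 31.2% of all genes that were higher and the 30.1% that were lower in the same comparison. Among 8 bipolar markers, 3 rose, Trpm1, a cation channel of ON bipolar cells, the most (0.37, adjusted p = 0.000589), and Prkca fell (-0.23, adjusted p = 0.00452). Of 7 Müller glia markers, 6 rose, led by Clu (1.61, adjusted p = 1.71e-09), and the only one below WT, Glul, measured -0.03. All 10 markers of microglia and macrophages rose and were differentially expressed, led by Cd68 at 4.37 (adjusted p = 3.66e-07). They summed to between 39.3 and 43.5 CPM in WT and between 302 and 378 CPM in NS. Among the pigment epithelium markers, 3 of 9 rose, led by Tyrp1 (2.11, adjusted p = 0.0431), and of the lens markers 0 of 9 passed edgeR's test, 0 of them also at an unadjusted p under 0.05. The lens values ran from Lim2 at -1.18 to Bfsp2 at 0.18. The part of these cells in the cone values was not tested.

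MSC-EVs were compared with NS to ask what the vesicles add to the injection in rd10 retinas. No cone gene passed the test, with adjusted p values of 0.052 to 0.959, and 6 of the 10 had an unadjusted p under 0.05 in edgeR's test, against 20.2% of all genes. Over the 14765 genes tested, 0.914% were higher and 0.251% lower at an adjusted p under 0.05, and 0.061% were differentially expressed. All 10 cone genes had a log2 difference below 0, between -0.76 and -0.02 with a median of -0.27, where 50.4% of all genes lay below 0 and their median was -0.002. The MSC-EVs and NS libraries did not overlap for 4 of the 10, against 26.2% of all genes. This comparison shares its NS libraries with that of NS and WT, and a high NS value raises the one and lowers the other.

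The 4 members without overlap were Gnat2, Gngt2, Pde6h and Cngb3. Gnat2 measured 118 to 152 CPM in MSC-EVs and 163 to 170 in NS, a log2 difference of -0.35 (SE 0.09, adjusted p = 0.0908). Gngt2 measured 27.2, 29.2 and 28.6 CPM in MSC-EVs against 35.5 to 39.4 in NS, at -0.38 (SE 0.08, adjusted p = 0.0596). These 3 MSC-EVs libraries were close together and the highest of them lay below the lowest WT library, 29.7 CPM. Pde6h measured 125, 112 and 128 CPM in MSC-EVs, below all 6 libraries of WT and NS, at -0.34 from NS (SE 0.07, adjusted p = 0.052). Cngb3 was at -0.32 (SE 0.11, adjusted p = 0.161) and measured 21.1 to 23.2 CPM, which overlapped WT. Without MSC-EVs replicate 3 Gnat2 passed the test (-0.47, adjusted p = 0.0192), and without MSC-EVs replicate 2 Gngt2 (-0.40, 0.0402) and Pde6h (-0.29, 0.0491) did. Over all genes 123 passed in the former fit and 676 in the latter, where the main fit had 172.

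The largest difference was that of Arr3, at -0.76 (SE 0.26, adjusted p = 0.186). The MSC-EVs libraries measured 35.9 to 42.8 CPM and NS replicate 2 42.5 CPM, so that the groups overlapped by that library. Without it, Arr3 was lower in MSC-EVs with an adjusted p of 0.0224. Opn1mw at -0.15 (adjusted p = 0.666), Pde6c at -0.21 (adjusted p = 0.226), Gnb3 at -0.07 (adjusted p = 0.793), Cnga3 at -0.03 (adjusted p = 0.942) and Opn1sw at -0.02 (adjusted p = 0.959) overlapped between the groups.

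Several values depended on which treated libraries were used. MSC-EVs replicate 3, the only treated library without Y-linked counts, was the highest treated library for Opn1sw, Opn1mw, Arr3, Gnat2, Pde6h and Cnga3. It was the lowest for Gnb3, Pde6c and Cngb3 and lay between the others for Gngt2. This library was also the deepest, with 62532343 counts against 23058113 and 22604485 in MSC-EVs replicates 1 and 2. Its pigment epithelium markers summed to 219 CPM, against 90.1 and 76.5. Its microglia and macrophage markers summed to 256 CPM, against 375 and 458. Y-linked counts, depth and these markers cannot be told apart among the treated libraries. Without MSC-EVs replicates 1 and 2, 7 of the 10 genes stayed below 0 with a median of -0.22, while Opn1sw stood at 0.31, Opn1mw at 0.10 and Cnga3 at 0.10. That fit has 1 treated library, which is taken to vary like the others. What the Y-linked counts stand for in the cone values was not tested.

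The rod cascade did not show the same direction in MSC-EVs against NS. Of its 9 genes 2 lay below 0, the median was 0.03, the values ran from -0.24 for Gngt1 to 0.27 for Pde6a, and none passed edgeR's test (adjusted p of 0.328 to 0.984), with 0 of 9 at an unadjusted p under 0.05. The ratios of cone to rod genes were lower in MSC-EVs than in NS on average for all 9 pairs, by -0.04 to -0.73 on the log2 scale, with exact permutation p values of 0.10 to 0.90 and adjusted values of 0.45 to 0.90. Only the ratio of Pde6h to Pde6g, at -0.69, had no overlap. By CPM this ratio was 0.341, 0.291 and 0.383 in NS and 0.342, 0.242 and 0.225 in MSC-EVs, which overlapped, and the difference was -0.34 (exact permutation p = 0.30). The implied length of Pde6h, described later, was shorter in NS. Of the other cone-enriched genes 0 of 8 passed edgeR's test, 0 also at an unadjusted p under 0.05, with a median of -0.08. Of the genes of both photoreceptor types 0 of 17 passed, with 3 at an unadjusted p under 0.05.

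Among the other cells, the bipolar genes Pcp2 (-0.41, adjusted p = 0.0451) and Gng13, a G protein γ subunit (-0.43, adjusted p = 0.0489), were lower in MSC-EVs than in NS. They were 2 of 8 bipolar markers, of which 4 lay below 0, with a median of 0.04. The highest was Nyx, a protein of ON bipolar synapses, at 0.56 (adjusted p = 0.0657), whose libraries did not overlap. In edgeR's test 0 of 7 Müller glia, 0 of 10 microglia, 0 of 9 pigment epithelium and 0 of 8 tested lens markers passed, with 4, 0, 2 and 0 of them at an unadjusted p under 0.05. All 9 pigment epithelium markers lay below NS. Their sum was 261, 64.8 and 179 CPM in NS and 90.1, 76.5 and 219 CPM in MSC-EVs, and the groups overlapped.

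Against WT, the MSC-EVs libraries showed the cone cascade mostly lower. Of the 10 genes, 6 fell, against 27.2% of the 14623 genes tested, and 1 rose, against 28.3%. The libraries did not overlap for 7 of the 10, against 65.1% of all genes, and the median log2 fold change was -0.29, where that of all genes was -0.004. Arr3 was the only member that was differentially expressed, against 12.2% of all genes. It fell by 1.33 on the log2 scale (SE 0.08, adjusted p = 1.33e-06), to 0.397 of the WT level.

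Gnat2 fell by 0.71 (SE 0.10, adjusted p = 0.000585), Opn1mw by 0.65 (SE 0.16, adjusted p = 0.0141), Opn1sw by 0.60 (SE 0.17, adjusted p = 0.0249), Pde6h by 0.33 (SE 0.08, adjusted p = 0.00745) and Gngt2 by 0.24 (SE 0.09, adjusted p = 0.0449). Gnb3 rose 1.78-fold (log2 0.83, SE 0.07, adjusted p = 7.69e-06). Pde6c at 0.19 (adjusted p = 0.0996), Cnga3 at 0.12 (adjusted p = 0.43) and Cngb3 at 0.03 (adjusted p = 0.816) did not pass the test. Several of these calls rested on single libraries. Gngt2 did not pass without WT replicate 2 (-0.17, adjusted p = 0.189), WT replicate 3 (-0.23, 0.119), MSC-EVs replicate 1 (-0.21, 0.132) or MSC-EVs replicate 3 (-0.25, 0.0612). Opn1sw did not pass without WT replicate 2 (-0.60, adjusted p = 0.0596), WT replicate 3 (-0.55, 0.077) or MSC-EVs replicate 1 (-0.56, 0.0715), and Opn1mw without MSC-EVs replicate 2 (-0.61, 0.076). Pde6c passed without MSC-EVs replicate 3 (0.28, adjusted p = 0.00396). When Y-linked expression was added as a covariate 3 members passed in place of 7, and 5954 of all genes in place of 8117. Without MSC-EVs replicates 1 and 2, which leaves 1 treated library, the median log2 fold change of the list was -0.25.

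For Pde6h, Gngt2 and Opn1mw the call differed between edgeR on counts and limma on log2(FPKM + 1). The limma fit used no TMM factors. Its median log2 fold change over all genes in NS against WT was 0.137, where that of edgeR was 0.005. In NS against WT, limma on log2(FPKM + 1) gave 0.30 for Gngt2 (adjusted p = 0.0099), where its FPKM libraries did not overlap and its counts did not pass, and -0.33 for Opn1mw (adjusted p = 0.0659), where the counts passed. In MSC-EVs against NS, Gngt2 passed by FPKM (-0.39, adjusted p = 0.0484). The Pde6h FPKM was 22.6, 22.2 and 26.9 in WT, 33.0, 35.6 and 35.3 in NS, and 21.8, 19.5 and 22.1 in MSC-EVs. NS stood above both other groups by FPKM, while by count NS lay inside the WT range. Limma on log2(FPKM + 1) gave 0.52 for NS against WT (adjusted p = 0.000389) and -0.69 for MSC-EVs against NS (adjusted p = 0.0389), where the counts gave 0.01 and -0.34.

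Count and FPKM are tied by the transcript length that the quantification assigned to the gene. This length can be read back from each count and FPKM. For Pde6h it was 5940, 5941 and 5940 bases in WT, 5033, 4496 and 4497 bases in NS and 5940, 5939 and 5941 bases in MSC-EVs. GENCODE M21 lists 4 Pde6h transcripts, of 2318, 5940, 211 and 392 bases. The length in WT and MSC-EVs was thus that of the transcript of 5940 bases within 1 base, and the length in NS lay between it and that of 2318 bases. The highest implied length of Pde6h was 1.32 times its lowest. This ratio had a median of 1.04 and a 90th percentile of 1.20 over the 8527 genes above 5 FPKM, of which 3.46% were at or over Pde6h. For the other cone genes it lay between 1.00 and 1.14, with 1.02 for both Gngt2 and Opn1mw.

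Pde6h (chromosome 6, 136923832-136968865, plus strand) shares 136 exonic bases with Arhgdib on the other strand, which measured a mean of 8.02 CPM in WT, 14.7 in NS and 13.4 in MSC-EVs. Whether the transcripts of Pde6h differed in use between the groups was not tested, since the table gives 1 value per gene.

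**Figure D4:**
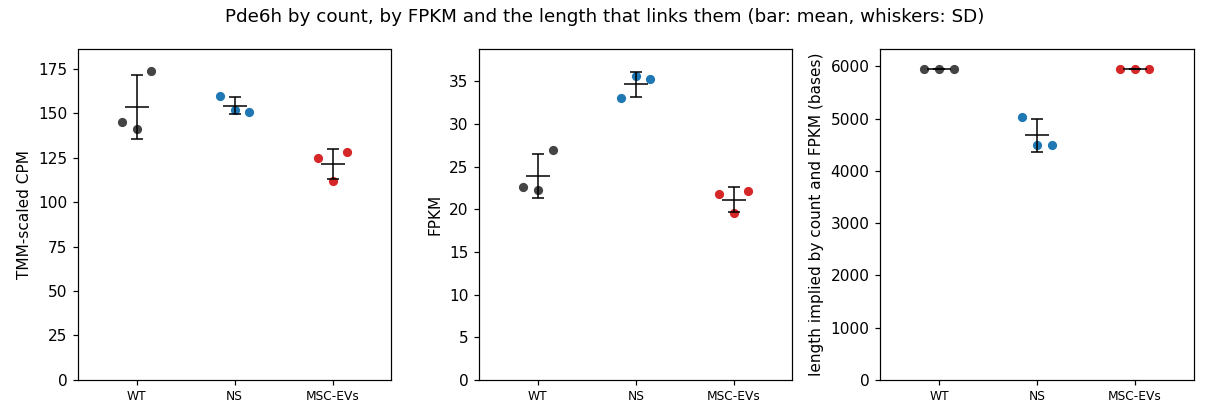
Pde6h in the 3 libraries per group as TMM-scaled CPM, as FPKM and as the transcript length in bases that ties the count to the FPKM (vertical axes, each from 0), with the mean as a bar and the SD as whiskers. NS measures 33.0 to 35.6 FPKM against 22.2 to 26.9 in WT, while the implied length is 4496 to 5033 bases in NS and 5939 to 5941 bases in the other groups.

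The genes most like the cone list were sought over the 9 libraries by Pearson's r with the mean of the 10 centred log2 CPM profiles, given as a description over libraries that share their groups and scaling. The 6 highest were Vps25 (r = 0.953), Ndufs4 (0.947), H2ac18 (0.947), Ptpn5 (0.939), Gm5617 (0.924) and Prodh (0.922). The mean cone profile itself was -0.20, -0.24 and -0.09 in MSC-EVs, 0.17, -0.02 and 0.09 in NS and 0.04, 0.04 and 0.22 in WT, on the log2 scale. Prodh, the proline dehydrogenase, followed it with means of 18.5 CPM in WT, 17.4 in NS and 11.5 in MSC-EVs.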

How the data were processed

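Retinal RNA was enriched with oligo(dT) and random primed, and the strand setting is not given in the sources used here. The authors deposited 1 table that gives, for every gene in each library, an estimated count and an FPKM value. The submitters' processing notes name fastp, Bowtie2, HISAT2, StringTie 1.3.1 and RSEM without their roles, and the build and annotation are not given in the sources used here. Between 9.2% and 11.7% of genes carried decimals, and the counts were rounded.

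Each pair of groups was fitted with edgeR 4.0.16 in R 4.3.3 (filterByExpr, TMM, robust glmQLFit, glmQLFTest, Benjamini-Hochberg), and the test was tried on simulated counts. The SE is the absolute log2 fold change divided by the square root of F. Limma 3.58.1 and DESeq2 1.42.0 served as alternatives. No separate litters or cultures are labelled, and p-values measure only the spread between these libraries. The members and lists were chosen with earlier results of these data known. By rule, the text names all cone and the listed rod cascade genes, the largest rise and fall of each other list in NS against WT, the 6 genes most like the cone list and the Y-linked genes. Calu, Abi3, Arhgdib, Thrb, Pcp2, Gng13, Nyx and Clca3a1 were added after their values were seen. Some genes of the rod and bipolar lists are not reported here and were left out of those lists. Positions are from GENCODE M21 (GRCm38).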

Additional observations from a re-analysis of the deposited data

How the results depend on the processing

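In MSC-EVs against NS the main fit called 0 cone genes at an adjusted p under 0.05, and 172 of all genes. The cone count was 2 with upper-quartile factors (154 of all genes) and 2 with limma on log2(FPKM + 1) (94). It was 4 with DESeq2's Wald test (930), 1 with no filter (228) and 3 with all 9 libraries in one fit (1026). When each library was left out in turn it was 0 to 2 (0 to 676). It was 1 without NS replicate 2 (32), 2 without MSC-EVs replicate 2 (676) and 1 without MSC-EVs replicate 3 (123). The labels give the replicate numbers no shared litter or day. The study gave MSC-EVs or NS to littermates, but does not say which libraries share a litter. Between MSC-EVs and NS, same-numbered libraries correlated at 0.0903, 0.178 and 0.284, each best with its own number. WT replicates 1 and 3 also correlated best with the MSC-EVs library of their own number (0.0686 and 0.0148), although these mice share no litter. The main fit did not use pairing by replicate number, and whether the numbers mark litters was not tested. With WT the correlations were -0.0726 to 0.0686. With a replicate block 403 in place of 172 of all genes passed in MSC-EVs against NS, and 1 cone gene, Pde6h (adjusted p = 0.0428). In NS against WT the cone count stayed at 5 to 7 of 10, where 7799 to 9110 of all genes passed. Differentially expressed members numbered 1 with limma and 6 with no fold limit, in place of 0. In MSC-EVs against WT 7 members passed (8117 of all genes), and 3 with the Y-linked covariate (5954). When 1 library was left out 5 to 7 passed (6517 to 8426 of all genes). With no fold limit 7 were called in place of 1. The median cone-to-rod difference of 2.02 ran from 1.91 to 2.11 when 1 library was left out.

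Small differences changed sign. In NS against WT, Pde6h was -0.05 when scaled on bipolar genes and -0.04 to 0.11 when 1 library was left out, and Cnga3 was -0.04 (without NS replicate 1) to 0.28. In MSC-EVs against NS, Opn1sw was 0.31 with the Y-linked covariate and without both such libraries, and -0.23 to 0.12 when 1 library was left out (above 0 without MSC-EVs replicate 1 or 2). Opn1mw was 0.11 and 0.10 under the same pair of settings, Cnga3 0.12 and 0.10, 0.04 with limma and -0.16 to 0.15 when 1 library was left out, and Gnb3 -0.16 to 0.08, above 0 without NS replicate 2. In MSC-EVs against WT, Cngb3 was -0.02 on bipolar scaling, -0.04 with the covariate, -0.03 without both libraries and -0.02 to 0.06 when 1 library was left out, and Pde6c was 0.00 under both. Opn1mw in NS against WT did not pass with upper-quartile factors (adjusted p = 0.0503) or no filter (0.0877). Limma on log2(FPKM + 1) moved the median of all genes to 0.137 in NS against WT and 0.118 in MSC-EVs against WT. The causes were not tested.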
